A study of Caenorhabditis elegans with 2 samples.

Results

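The vitellogenin genes vit-1, vit-2, vit-3, vit-4, vit-5 and vit-6 of *Caenorhabditis elegans* were examined for binding of the transcription factor TRA-1. They were taken by name from the Ensembl annotation of the WBcel235 assembly and are 6 of 19973 protein-coding genes of the nuclear genome. Of these, vit-1 to vit-5 lie on X and vit-6 lies on IV. Binding was measured by chromatin immunoprecipitation and sequencing (ChIP-seq) in whole L4 larvae of strain DZ840 aged 48 h. In this strain the tra-1 gene on III carries the allele ez72, an insertion made with CRISPR at the gene itself that adds a biotag, GFP, a TEV site and a 3xflag tag to the protein. The chromatin was sheared by sonication and precipitated with an antibody against GFP. The worms had been synchronised by starving L1 larvae obtained by bleaching. There was 1 group of 2 biological replicates, all with the tagged allele, and sex was not recorded. Chromatin of all tissues was pooled in each library, so binding in the intestine could not be told apart from binding elsewhere.

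Vitellogenins are yolk proteins. They are made in the intestine of adult hermaphrodites from the end of larval life, secreted into the body cavity and taken up by growing oocytes, and males do not make them. The 5 X-linked genes encode closely related large yolk proteins, while vit-6 encodes the precursor of a pair of smaller ones. TRA-1 is a zinc-finger protein of the GLI family that stands at the end of the somatic sex determination pathway and represses male genes in hermaphrodites. One of its known targets, mab-3, encodes a DM-domain factor that represses vitellogenin genes in the male intestine.

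The data were the authors' peak lists. A site is a peak of the conservative list of both replicates (2703 sites), which is called the main list here. Its summit is the position of the peak's highest point, and its signal is the authors' own peak value, which ranks peaks within a list and has no absolute unit. Each peak also has a score of up to 1000. It is higher for peaks that are more reproducible, that is with a lower irreproducible discovery rate (IDR), and was at least 830 throughout the main list. The second thresholded list held 3168 peaks, that of replicate 1 alone 1682 and that of replicate 2 alone 1355. Reads are not counted in these lists and the sequencing depth is therefore unknown.

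All 6 vitellogenin genes had a site just upstream of the start. The summits lay from 82 to 173 bp upstream (median 126.5 bp), and no gene had more than 1 site in its promoter, which here reached from 1000 bp before an annotated start to 200 bp after it. By the same rule 6.41% of all protein-coding genes had a promoter site, and 9.26% of those on X. Among the 1281 genes with a promoter site, the strongest of these lay a median of 259 bp upstream (middle range 119 to 506 bp), and 197 of them (15.4%) lay within the 82 to 173 bp spanned by the vitellogenin genes. The second thresholded list also had a promoter site at each of the 6 genes, against 7.41% of all genes. A wider rule, a site within 10 kb of the gene, was also met by all 6, but it was met by 37.7% of protein-coding genes and says little about a gene.

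**Figure D1:**
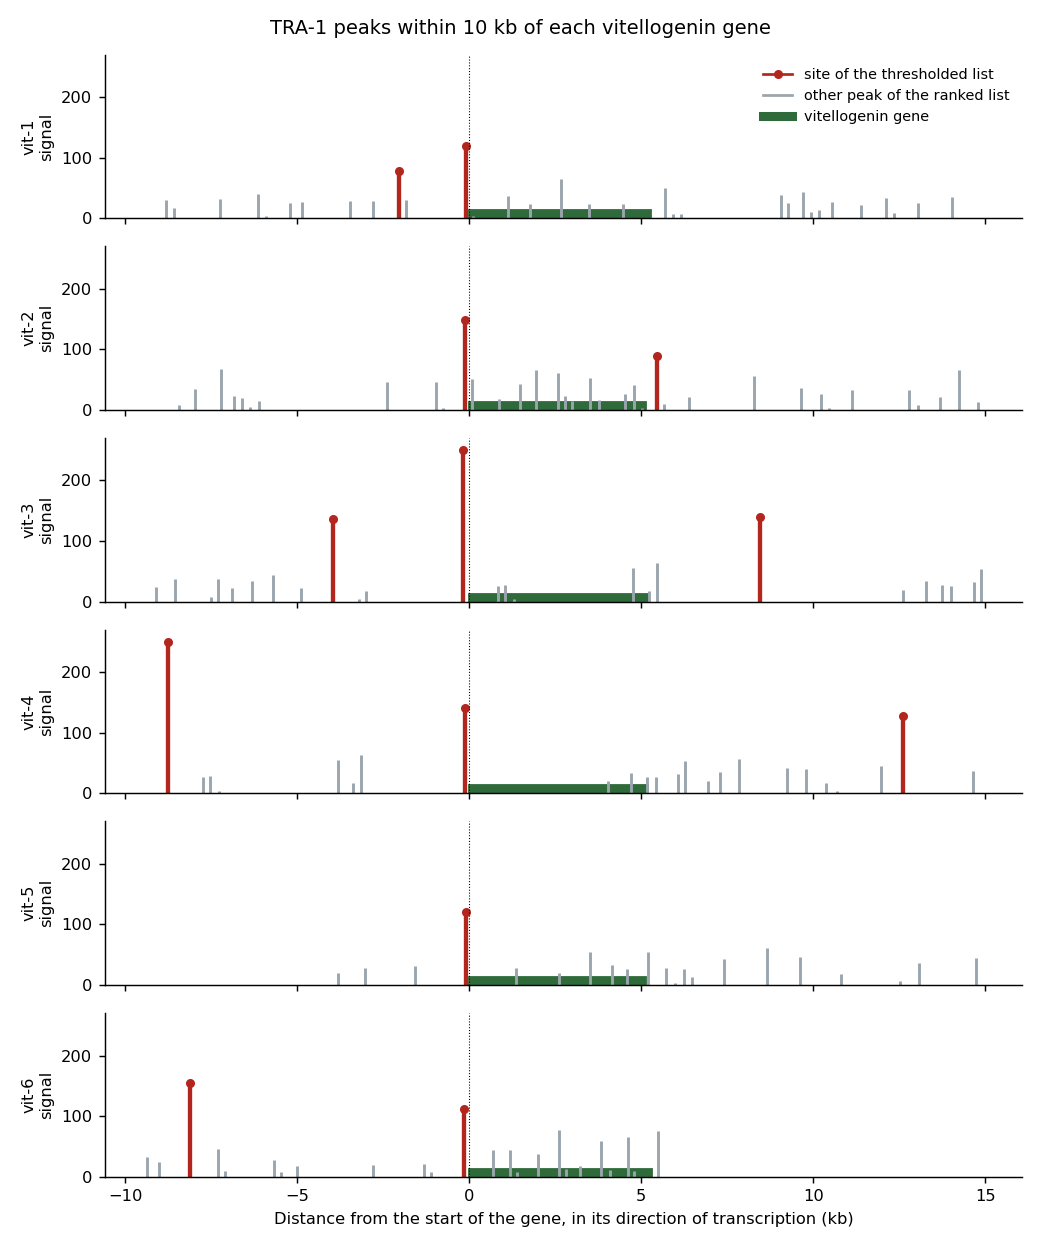
Signal (authors' peak value) of every ranked peak within 10 kb of each vitellogenin gene, plotted against distance from the start of the gene in kb, with red stems for sites of the main list, grey stems for other ranked peaks and a green bar for the gene. Each gene has a red stem just left of 0, from 111.1 at vit-6 to 250.3 at vit-3, and no red stem lies inside a vitellogenin gene.

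The sequences below run from 250 to 11 bp upstream of each annotated start and are shown because the summits fall within them. They were read from the RefSeq sequence of WBcel235, in the direction of transcription. Capitals mark each copy, on either strand, of TGATAA, of the longer CTGATAA that contains it, and of TGTCAAT. The last pair are known as VPE2 and VPE1, words first described in the promoters of these genes, so their presence here is not independent of the choice of genes. GATA factors, among them ELT-2 of the intestine, bind words such as TGATAA.
vit-1 (chrX:7727639-7727878, plus strand): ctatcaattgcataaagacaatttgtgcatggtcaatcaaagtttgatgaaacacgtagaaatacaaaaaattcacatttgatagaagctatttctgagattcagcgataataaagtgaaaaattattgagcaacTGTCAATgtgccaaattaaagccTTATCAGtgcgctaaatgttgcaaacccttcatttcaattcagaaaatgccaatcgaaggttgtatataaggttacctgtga
vit-2 (chrX:5100792-5101031, plus strand): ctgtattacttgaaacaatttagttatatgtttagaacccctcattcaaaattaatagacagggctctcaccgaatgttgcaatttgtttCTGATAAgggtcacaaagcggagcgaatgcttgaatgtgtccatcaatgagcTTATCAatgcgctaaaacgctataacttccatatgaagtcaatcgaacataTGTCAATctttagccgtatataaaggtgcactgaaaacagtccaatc
vit-3 (chrX:3572560-3572799, minus strand): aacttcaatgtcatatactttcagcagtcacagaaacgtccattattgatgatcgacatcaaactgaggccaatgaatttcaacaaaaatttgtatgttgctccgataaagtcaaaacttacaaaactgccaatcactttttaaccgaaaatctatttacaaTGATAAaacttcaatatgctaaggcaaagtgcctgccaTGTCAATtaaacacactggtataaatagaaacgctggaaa
vit-4 (chrX:3563976-3564215, minus strand): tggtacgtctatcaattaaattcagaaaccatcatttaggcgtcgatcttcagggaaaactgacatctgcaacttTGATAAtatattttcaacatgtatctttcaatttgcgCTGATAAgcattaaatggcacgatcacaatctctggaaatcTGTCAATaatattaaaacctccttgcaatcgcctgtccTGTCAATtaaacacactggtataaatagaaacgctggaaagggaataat
vit-5 (chrX:3403221-3403460, plus strand): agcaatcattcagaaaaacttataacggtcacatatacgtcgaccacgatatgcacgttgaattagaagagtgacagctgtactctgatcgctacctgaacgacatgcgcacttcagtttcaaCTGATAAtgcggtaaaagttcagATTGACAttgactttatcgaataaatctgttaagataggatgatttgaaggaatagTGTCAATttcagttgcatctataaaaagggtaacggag
vit-6 (chrIV:8260907-8261146, plus strand): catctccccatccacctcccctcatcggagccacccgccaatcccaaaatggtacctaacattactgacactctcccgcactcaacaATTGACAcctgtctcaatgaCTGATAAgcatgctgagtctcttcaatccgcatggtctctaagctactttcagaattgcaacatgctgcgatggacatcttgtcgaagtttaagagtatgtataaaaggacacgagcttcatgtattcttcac

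Every one of the 6 windows held both TGATAA and the VPE1 word. The former occurred in 26.1% of the same windows of all protein-coding genes, and in 28.4% of those of genes with a promoter site. The VPE1 word TGTCAAT occurred in 4.62% of all windows and in 5.00% of those of genes with a promoter site. The VPE1 copy of vit-3 and the one nearer to the start of vit-4 lie in a stretch of sequence that these genes share. The VPE2 word CTGATAA was found in 5 of the 6 windows, all but that of vit-3, and in 6.93% of all windows. A pair of TGATAA copies stood in the windows of vit-2 and vit-4, a number reached by 5.97% of all genes. The TRA-1 core TGGGTGGTC, searched on both strands with at most 1 mismatch, was in none of the 6 windows and in 1.95% of all windows. Within 150 bp of the summit the core was at 0 of the 6 vitellogenin sites and at 130 of the 2703 main sites (4.81%). These matches describe the sequence and do not show what bound there.

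The distance from the summit to these words depended on the replicate. In the main list, from the summit to the middle of the nearest TGATAA was 7 bp at vit-1, 22 bp at vit-2, 15 bp at vit-4, 33 bp at vit-5 and 9 bp at vit-6. At vit-3 the distance was 87 bp, and the called site did not contain the word, which lay 83 to 88 bp upstream. With the summit of replicate 1 alone it was 6 to 38 bp at 5 genes and 87 bp at vit-3. With that of replicate 2 alone it was 101 bp at vit-4, 102 bp at vit-5 and 79 bp at vit-3, and 5 to 25 bp at the other 3 genes. To the nearest VPE1 word the main summit had 11 bp at vit-5 and vit-6, 25 bp at vit-4, 30 bp at vit-1, 80 bp at vit-2 and 126 bp at vit-3. The replicate 1 summit had 13 bp at vit-1, 18 bp at vit-6, 24 bp at vit-4, 29 bp at vit-5, 88 bp at vit-2 and 126 bp at vit-3. That of replicate 2 had 3 bp at vit-1, 15 bp at vit-6, 23 bp at vit-4, 24 bp at vit-5, 41 bp at vit-2 and 118 bp at vit-3. Within 150 bp to each side of the main summit, TGATAA was at all 6 sites and at 39.3% of the 2703 main sites. CTGATAA was at 5 of the 6 against 16.7%, and TGTCAAT at all 6 against 8.25%.

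**Figure D2:**
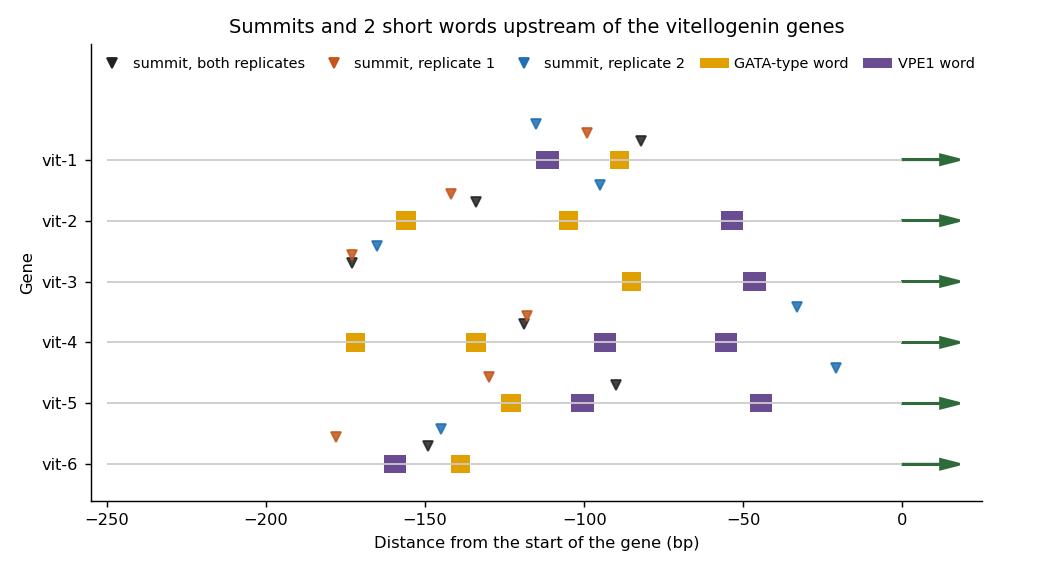
Positions of summits and words in the 250 bp upstream of each vitellogenin gene (horizontal axis, bp from the start), with triangles for the summit in the main list and in the ranked list of each replicate, yellow bars for the GATA-type word and purple bars for the VPE1 word. Both words are upstream of all 6 genes, and the replicates' summits lie from 8 bp apart at vit-3 to 109 bp apart at vit-5.

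The highest signal was at vit-3, whose site also lies 8757 bp upstream of the start of vit-4. Its summit at position 3572722 of X was 173 bp upstream of the start and had a signal of 250.3, rank 127 of 2703. This site (3572650 to 3572800) was 151 bp wide, while 90.9% of main sites were 304 bp wide, and it did not reach into the gene. The vit-3 site came 88th by signal among the 1281 genes with a promoter site.

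At vit-2 the summit (X, 5100908) lay 134 bp upstream with a signal of 148.1, rank 630. At vit-4 it lay 119 bp upstream (X, 3564084), with a signal of 140.1, rank 726. The summits of vit-5 (X, 3403381) and vit-1 (X, 7727807) lay 90 and 82 bp upstream, with signals of 120.1 and 119.8, ranks 1047 and 1053. That of vit-6 (IV, 8261008) lay 149 bp upstream and had a signal of 111.1, rank 1203, the lowest of the 6 in the main list. The 6 signals had a median of 130.1, against 105.3 for all main sites and 112.6 for main sites on X. Ordered by signal, the main list held vit-3 in its top 4.70% and vit-6 in its top 44.5%, with the other 4 genes between. The order of the 6 signals comes from 1 pooled list, without an error for each value, and vit-6 was the lowest in replicate 1 too (65.4) but came after vit-3 alone in replicate 2 (59.3). All 6 sites had the highest score, 1000, shared by 75.1% of main sites.

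In the pooled list the start site was the strongest peak nearby at 4 of the 6 genes. Among all ranked peaks within 10 kb, with or without the threshold, it was the strongest at vit-1, vit-2, vit-3 and vit-5. At vit-4 the vit-3 site was stronger, and at vit-6 a site 8125 bp upstream had a signal of 154.6. How often a promoter site is the strongest peak within 10 kb at other genes was not worked out. The strongest peak nearby that did not pass the threshold had a signal of 60.4 at vit-5, 65.4 at vit-1, 66.9 at vit-2 and 77.1 at vit-6, and 63.5 at both vit-3 and vit-4. The start site was thus 1.44 times as high at vit-6 and 3.94 times as high at vit-3, with the other 4 genes between. These ratios set a peak that passed the threshold against peaks that did not, so a ratio over 1 says little about a gene. They also leave out the stronger neighbours at vit-4 and vit-6, which passed. Inside the genes, more than 200 bp past the start, there were from 3 ranked peaks at vit-4 to 11 at vit-2 and vit-6, and none was in the main list. Their median signal was from 24.3 at vit-1 to 37.8 at vit-6.

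The replicates differed at the 5 X-linked genes. Replicate 1 gave vit-3 a signal of 189.3 and replicate 2 one of 63.8, a ratio of 2.96. At vit-5 the signals were 96.0 and 41.4, a ratio of 2.32, and at vit-2 they were 100.6 and 44.6, a ratio of 2.25. The values were 98.6 and 47.9 at vit-4 (ratio 2.06), and 78.7 and 38.6 at vit-1 (ratio 2.04). At vit-6, on IV, they were 65.4 and 59.3, a ratio of 1.10. Replicate 1 was thus the higher at all 6 genes, as it was, or equal, at 69.8% of the 2664 main sites with a peak in both ranked lists. Divided by each replicate's median over main sites, the ratio was 2.53 at vit-3, 1.98 at vit-5, 1.93 at vit-2, 1.76 at vit-4 and 1.74 at vit-1, and 0.944 at vit-6. On that scale vit-3 alone stayed over 2, and at vit-6 replicate 2 was the higher.

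Without that scaling, the median ratio over the 2664 main sites was 1.17 (middle range 0.947 to 1.46), and on X it was 1.18 over 652 sites. A ratio at least as high as that of vit-1, the lowest of the 5 X-linked genes, was found at 131 of the 2664 (4.92%), these 5 included. One at least as high as that of vit-3 was found at 4 (0.15%), vit-3 included. Among main sites on X alone, the ratio of vit-1 was at the 94.0th percentile and that of vit-3 at the 99.5th. Main sites with a peak in a replicate's ranked list were also ranked by signal, 2687 in replicate 1 and 2678 in replicate 2. There vit-3 was at the 97.8th percentile of signal in replicate 1 and at the 72.0th in replicate 2. For vit-5 these were the 83.5th and 27.6th, for vit-2 the 85.5th and 36.4th, for vit-4 the 84.6th and 45.6th, and for vit-1 the 72.7th and 18.7th. The order was the other way at vit-6, at the 59.7th and 65.8th. The 5 other main sites within 10 kb of a vitellogenin gene had ratios from 0.878 to 1.11 (median 0.980), below those of the X-linked start sites. These values come from 1 library each and carry no error, and with 1 vitellogenin gene off X the chromosome cannot be told apart from other ways in which vit-6 differs.

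**Figure D3:**
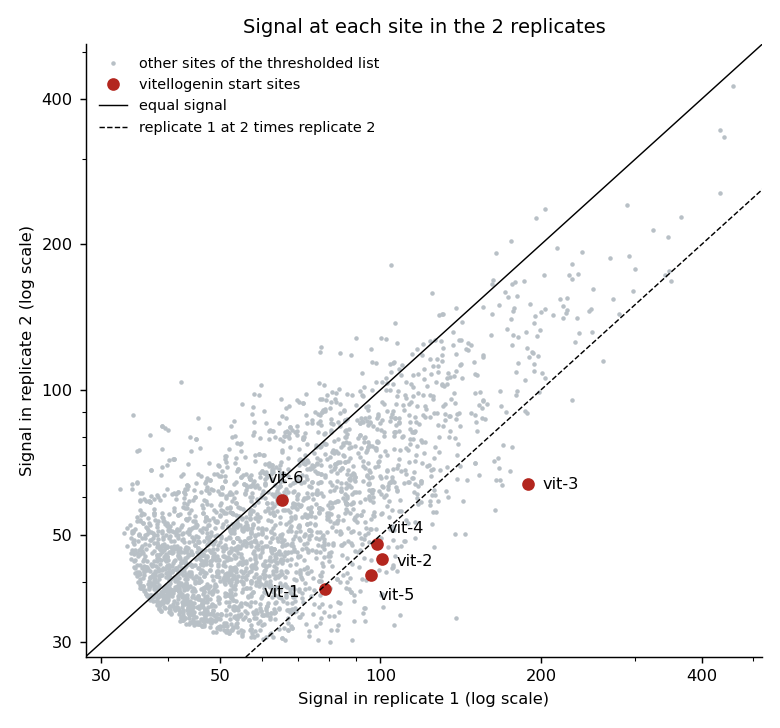
Signal of each main site in replicate 2 against its signal in replicate 1, both on log scales, with grey points for other sites, red points for the 6 vitellogenin start sites, a solid line for equal signal and a dashed line where replicate 1 is 2 times replicate 2. The 5 X-linked vitellogenin sites lie below the dashed line, vit-3 farthest at a ratio of 2.96, and vit-6 lies close to the solid line.

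The replicates' own lists held different numbers of the 6 sites. The list of replicate 1 had a promoter site at all 6 genes, against 4.47% of all protein-coding genes. That of replicate 2 had one at 3, namely vit-2, vit-3 and vit-5, against 3.47%. They were the 3 genes with the highest ratios of replicate 1 over replicate 2. These 3 were also the genes whose main site was overlapped in the lists of both replicates, which held for 2.59% of all genes. Across all main sites, 54.6% overlapped a peak in the list of replicate 1 and 46.1% one in that of replicate 2. Both lists overlapped 35.3% of main sites, the closer background for these 6 genes, which all have a main site. In replicate 2 the start peaks of vit-1, vit-4 and vit-6 were in the ranked list with scores of 324, 524 and 357, below 830. Those of vit-5, vit-2 and vit-3 had scores of 919, 885 and 1000. In replicate 1 the score was 1000 at all 6. The start peak was the strongest within 10 kb in replicate 2 at vit-5 alone, and at the others it ranked 2 or, at vit-4, 3. In replicate 1 it was the strongest at vit-1, vit-2, vit-3 and vit-5, and it ranked 2 at vit-4 and vit-6. For neither replicate was a share of other genes worked out.

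**Figure D4:**
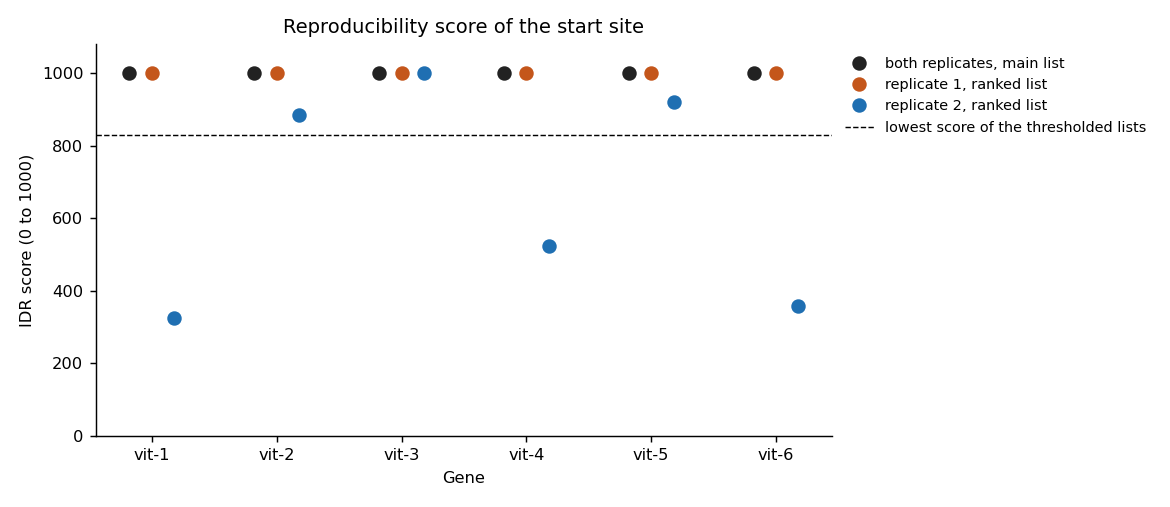
IDR score of the start site of each vitellogenin gene (vertical axis, 0 to 1000) in the main list and in the ranked list of each replicate, with a dashed line at 830, the lowest score in the thresholded lists. Replicate 1 and the main list stand at 1000 for all 6 genes, while in replicate 2 vit-1, vit-4 and vit-6 fall below the line.

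The summits of the replicates were 8 bp apart at vit-3, 16 bp at vit-1, 33 bp at vit-6, 47 bp at vit-2, 85 bp at vit-4 and 109 bp at vit-5. Over the main sites the median gap was 25 bp (middle range 10 to 57 bp), so those of vit-4 and vit-5 were wider than usual. In replicate 2 they lay 33 bp upstream at vit-4 and 21 bp upstream at vit-5, closer to the start than in replicate 1 (118 and 130 bp). The replicate 2 summit of vit-4 falls in DNA that also occurs at the start of vit-3, as described below. The list of replicate 1 also had a peak inside the gene 100 bp past the start of vit-1 and another 59 bp past that of vit-2. By signal they ranked 1670 and 1676 of its 1682 peaks. Farther inside vit-6, that list had a peak 2620 bp past the start (signal 49.5, score 1000), and the list of replicate 2 had one 4656 bp past it (42.7, score 850).

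In their coding sequence vit-3, vit-4 and vit-5 are close copies of each other, as are vit-1 and vit-2, while vit-6 stands apart. In a global alignment, the coding sequences of vit-3 and vit-4 were identical at 99.0% of positions, those of vit-4 and vit-5 at 97.8% and those of vit-3 and vit-5 at 97.7%. The pair vit-1 and vit-2 was at 93.8%, and these genes were at 65.8 to 67.2% with vit-3, vit-4 and vit-5. vit-6 was at 50.2 to 50.7% with the others. In the 300 bp upstream of the start, identity was highest for vit-3 and vit-4 (55.5%) and from 41.3 to 48.9% for the other 14 pairs. The same windows of the 6 genes aligned to those of 999 other protein-coding genes gave a median of 42.9%, with 5% of these pairs above 46.3%.

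**Figure D5:**
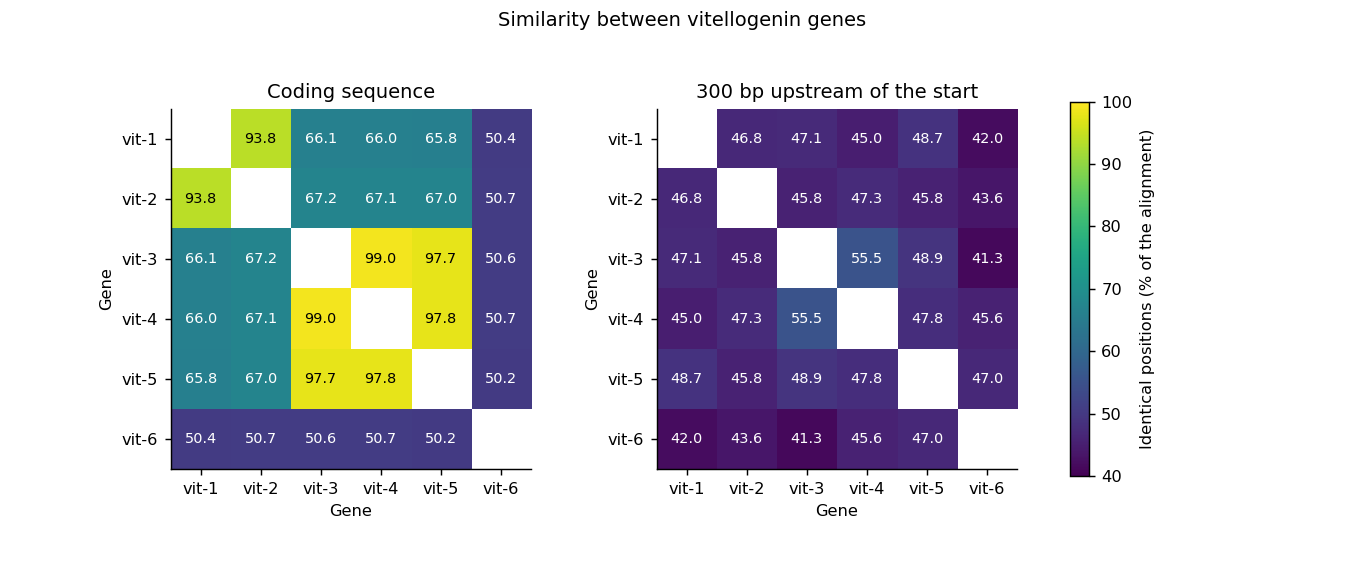
Identical positions, as a percent of the global alignment, between each pair of vitellogenin genes, in the coding sequence (left) and in the 300 bp upstream of the start (right), on 1 colour scale from 40 to 100%. The coding panel shows the trio vit-3, vit-4 and vit-5 above 97% and vit-1 with vit-2 at 93.8%, and the upstream panel is between 41.3 and 55.5% throughout.

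Most of the DNA under the 6 sites occurs once in the genome. All words of 50 bases in the sites of vit-1, vit-2, vit-3, vit-5 and vit-6 were single copy, as held for 81.2% of main sites. At vit-4, 211 of 255 words (82.7%) were single copy and the other 44 had a second copy, all at the start of vit-3. That shared stretch begins at X position 3572507, inside vit-3, and does not reach the vit-3 site, which starts at 3572650. With words of 36 bases, 78.4% of the vit-4 site and 97.8% of the vit-5 site were single copy, and with words of 100 bases all 6 sites were. How reads that match vit-3 and vit-4 equally were placed by the authors is not given in the sources used here.

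Of the 11 distinct main sites within 10 kb of the 6 genes, the other 5 lay nearest to other genes. On X, a site 2043 bp upstream of vit-1 (signal 77.7) was 133 bp upstream of spp-14, which encodes a saposin-like protein. One 3946 bp upstream of vit-3 (136.7) was 111 bp upstream of ckc-1, a choline kinase gene. A site past the end of vit-4 (127.8) lay inside rgs-7, a gene for a regulator of G protein signalling, and a site past the end of vit-2 (88.3) lay inside C42D8.9. On IV, the site 8125 bp upstream of vit-6 (154.6) was beside H09I01.2, a snoRNA gene, and 6972 bp from the nearest protein-coding start, that of K07H8.7. The second list lacked the C42D8.9 site and had 3 further peaks around vit-6, of which 2 were inside the gene (signals of 77.1 and 12.4, each with a score of 833) and 1 was just past its end (75.4, score 879).

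Of the 16 other protein-coding genes with a start within 10 kb of a vitellogenin start site, spp-14 and ckc-1 were the 2 with a promoter site of their own. The other 14 were set-12 and K09F5.6 near vit-1, acn-1, C42D8.1 and C42D8.9 near vit-2, T27A10.5 near vit-3 and vit-4, and rgs-7 near vit-4. Near vit-5 they were cht-1, unc-78, slcf-2 and C04F6.9, and near vit-6 K07H8.5, K07H8.7 and K07H8.8. The closest of these starts to a vitellogenin summit was that of T27A10.5, 860 bp away. The vit-6 summit lay 1004 bp upstream of the start of K07H8.7, just outside the promoter limit of 1000 bp. Among all protein-coding genes, 6.41% had a promoter site. No vitellogenin start site lay within another protein-coding gene. An unclassified noncoding RNA gene was annotated within 100 bp of the summit at vit-4 (F59D8.3) and at vit-6 (K07H8.16).

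Genes that regulate vitellogenin expression, or transport or take up yolk, were examined as a list of 15. The list was chosen with results of these data known and holds a known TRA-1 target, so its counts are a description and not independent of the outcome. A promoter site was found at 5 of them, against the 6.41% of all protein-coding genes given above, namely elt-2, ceh-60, pqm-1, mab-3 and daf-16. At mab-3, the repressor of vitellogenin genes in males, the signal was 325.5, with 170.9 in replicate 1 and 159.6 in replicate 2. The elt-2 site lay 481 bp upstream of its start with a signal of 261.8, and with 146.2 and 124.7 in the replicates. The strongest promoter site of ceh-60, which encodes a PBX-type homeodomain factor that activates vitellogenin genes, was 662 bp upstream (signal 102.3, replicates 67.0 and 31.9). That of pqm-1, a zinc-finger factor gene, was 747 bp upstream (86.8, replicates 52.5 and 44.6), and that of daf-16, the FOXO factor of insulin signalling, 376 bp upstream (190.8, replicates 90.3 and 86.7).

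A further 6 of the 15 had a site within 10 kb and none in the promoter. Both sites of unc-62, a Meis-type partner of CEH-60, lay inside the gene (the stronger with a signal of 92.8). The site of lin-29, a zinc-finger factor of the larva to adult switch, lay 1322 bp upstream (88.0), and the nearest to mab-10, which encodes its cofactor, lay 7749 bp from its start (118.8). That of lrp-2, a receptor-related gene, lay 2735 bp upstream (83.3). That of sgk-1, a kinase gene, lay 9207 bp upstream (101.5), and that of dsc-4, which encodes a lipid transfer protein for yolk particles, 2093 bp upstream (136.3). No site lay within 10 kb of elt-7, rict-1, daf-2 or rme-2, the last of which encodes the yolk receptor of oocytes. In all, 11 of these 15 chosen genes had a site within 10 kb, a rule met by 37.7% of all genes that also takes in sites of neighbouring genes.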

How the data were processed

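TRA-1 was mapped by ChIP-seq in 2 biological replicates of 1 group. The authors deposited peak lists on ce11, per the labels, made from alignments of the tagged strain, with a control named in the labels. The aligner is not given in the sources used here, nor is the peak caller. The deposited signal, the deposited score and the deposited −log10 of q and of the IDR were taken as they stand, and q entered no result.

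Coordinates are 1-based, and positions and names come from Ensembl release 115 of WBcel235, the assembly of ce11. The signal in a replicate is that of the strongest peak of its own ranked list that overlaps the main site by at least 1 bp. No test was made, since there is 1 group. Percentages over all genes or sites use the same rule and serve as background. Words were counted on both strands of the genome. Alignments were global (match 1, mismatch -1, gap opening -5, extension -0.5), and identity is a percent of alignment columns. The code was tested on simulated data. Named genes were the 6 members, genes with a start within 10 kb of their start sites, and the 15 listed genes. The members, lists and words were chosen with earlier results of these data known. Python 3.11.15, numpy 2.4.6, pandas 2.3.3, Biopython 1.88 and matplotlib 3.10.9 were used.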

Additional observations from a re-analysis of the deposited data

How the results depend on the processing

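All 6 genes kept a promoter site in the second thresholded list, in the ranked list, with other promoter windows and when only the nearest start to each site was counted, and 5 did at an IDR of at most 0.001, all but vit-1. This IDR was read from the ranked list, since the score stops at 1000, and 1321 sites met it. With sites of score 1000 only, an alternative added after the data were seen, all 6 did. Such sites numbered 2031, or 75.1% of the main list. The ranked list has no threshold and held 78883 peaks, so a promoter peak there says little about a gene. Apart from the second list (7.41% of all genes), no share of all genes was worked out for these alternatives. Leaving out a replicate gave 3 to 6 genes with a promoter site, 5 to 6 with a site within 10 kb, and 7 to 12 sites within 10 kb. The median summit then lay 105 to 136 bp upstream. It was taken over all 6 genes from each replicate's ranked list, including the 3 without a promoter site in the thresholded list of replicate 2. The sites within 10 kb, 11 in the main list, numbered 148 in the ranked list without a threshold and 7 within 2 kb. With the replicates' ranked lists in place of the thresholded ones, 6 genes rather than 3 had a peak in both. Of all main sites, 98.6% had a peak in both ranked lists. The median replicate ratio of 2.16 became 1.84 when each signal was divided by that replicate's median over main sites. The median identity between copies was 66.1% in coding sequence and 46.8% upstream. The whole peak held TGATAA at 5 of 6 genes. The distance from summit to TGATAA, recomputed with each replicate's summit after the data were seen, moved by over 1.5 times at 5 genes, all but vit-3. No paired analysis was possible because there is 1 group. Depth is unknown, so what it limits cannot be given.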
